A study of Mus musculus with 16 samples.

Results

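The genes described here are 31 genes of cholesterol synthesis, uptake and efflux, followed across sorted alveolar type 2 (AT2) cells of mouse lung. They were taken by symbol from a list fixed by name: 4 regulators of sterol sensing (Srebf2, Scap, Insig1, Insig2), 7 enzymes of the mevalonate arm, 11 enzymes from squalene to cholesterol, 4 genes of sterol transport and storage, and 5 genes of the liver X receptor (LXR) and efflux side. All 31 of the 31 were found among the 27179 genes of the count table, and all 31 passed the filter on low counts. RNA was sequenced from 16 libraries of 8 mice, each mouse giving a CD44- and a CD44+ fraction. AT2 cells, the epithelial cells that make lung surfactant, had been sorted live on Epcam and high CD200, leaving out cells with CD45, CD31 or CD104, and CD44, the hyaluronan receptor, split them into the fractions. The labels list lungs with the genotype SP-C WT and lungs with the genotype SP-C Mutant (SP-C is surfactant protein C, encoded by Sftpc), and they give the treatment text OG TMX for all 16 samples, so the controls carry it too. The labels used here name neither the mutation, the driver of any recombination, nor the age of the mice. The columns of counts carry the prefixes R26 (animals 1, 2, 7 and 8) and OG (animals 3, 5, 6 and 7), and the 4 groups of 4 libraries are named by prefix and fraction. No label ties a prefix to a genotype. Reading R26 as control and OG as Sftpc mutant rests on inference alone. Were it the other way round, every OG against R26 difference below has the opposite meaning for genotype, while comparisons of CD44+ with CD44- cells stand. The series asks how CD44+ and CD44- AT2 cells differ in fibrosis, and these genes are read here against that design.

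Cells sense cholesterol in the endoplasmic reticulum. When it is low, SCAP carries the precursor of the transcription factor SREBP2, the product of Srebf2, to the Golgi, where it is cut and released to switch on the enzymes of synthesis. When sterols are plentiful, the INSIG proteins hold SCAP back, and oxysterols activate the LXRs, which switch on the exporters ABCA1 and ABCG1 and the ubiquitin ligase encoded by Mylip. AT2 cells handle much cholesterol because it is a component of the surfactant they secrete.

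The promoters of a few members are printed because the results turn on groups of genes that moved together or apart. The sequences are from RefSeq (GRCm38.p6), run from 250 bases before to 50 bases after an annotated start, and were matched by symbol for 25 of the 31 genes. Capitals mark a sterol regulatory element (SRE, searched as TCACNCCAC) or a CCAAT box, which reads ATTGG where it lies on the other strand. Hmgcs1 and Idi1 stand for the synthesis enzymes with lower levels in OG cells, Insig1 for the regulator with the widest difference, Ebp for the enzyme that was higher in OG cells, and Abca1 for the exporters. Hmgcs1 is at chr13:119690101-119690400 on the plus strand, Idi1 at chr13:8885356-8885655 on the plus strand, Insig1 at chr5:28071162-28071461 on the plus strand, Ebp at chrX:8193463-8193762 on the minus strand, and Abca1 at chr4:53159846-53160145 on the minus strand.
Hmgcs1: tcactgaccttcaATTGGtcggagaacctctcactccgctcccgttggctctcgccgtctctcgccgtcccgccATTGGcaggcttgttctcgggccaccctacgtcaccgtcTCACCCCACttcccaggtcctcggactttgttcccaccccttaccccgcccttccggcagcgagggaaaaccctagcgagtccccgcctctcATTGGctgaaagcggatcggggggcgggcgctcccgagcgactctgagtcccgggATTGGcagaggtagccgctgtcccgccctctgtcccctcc
Idi1: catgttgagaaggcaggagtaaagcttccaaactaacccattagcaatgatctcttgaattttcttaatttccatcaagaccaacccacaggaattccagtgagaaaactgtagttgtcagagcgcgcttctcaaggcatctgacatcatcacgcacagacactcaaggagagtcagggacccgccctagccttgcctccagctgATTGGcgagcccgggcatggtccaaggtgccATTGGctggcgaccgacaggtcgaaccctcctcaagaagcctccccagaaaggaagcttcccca
Insig1: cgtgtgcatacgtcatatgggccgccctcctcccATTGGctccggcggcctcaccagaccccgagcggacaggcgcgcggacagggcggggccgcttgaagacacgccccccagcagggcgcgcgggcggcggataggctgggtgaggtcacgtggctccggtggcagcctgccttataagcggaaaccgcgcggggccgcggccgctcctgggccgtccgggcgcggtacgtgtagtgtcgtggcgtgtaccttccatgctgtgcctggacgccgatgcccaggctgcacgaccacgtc
Ebp: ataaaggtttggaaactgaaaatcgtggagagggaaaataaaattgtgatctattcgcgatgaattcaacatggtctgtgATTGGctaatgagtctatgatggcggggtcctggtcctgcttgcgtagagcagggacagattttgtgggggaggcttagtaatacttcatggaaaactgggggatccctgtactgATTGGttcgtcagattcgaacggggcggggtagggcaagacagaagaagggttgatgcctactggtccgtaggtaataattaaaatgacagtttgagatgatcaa
Abca1: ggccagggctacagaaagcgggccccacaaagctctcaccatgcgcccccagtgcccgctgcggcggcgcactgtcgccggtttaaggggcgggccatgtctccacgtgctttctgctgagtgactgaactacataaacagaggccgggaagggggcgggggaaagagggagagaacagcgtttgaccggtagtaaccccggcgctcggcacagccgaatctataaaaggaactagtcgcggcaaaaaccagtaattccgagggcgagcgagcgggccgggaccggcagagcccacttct
Hmgcs1 held the only SRE match of the 15 synthesis enzymes in the promoter table, TCACCCCAC on the plus strand, 137 bases before the annotated start, and 1.44% of the 27025 genes in the table held such a match. CCAAT was found on either strand in 14 of the 15 enzymes and in 1 of the 4 LXR and efflux genes in the table, Mylip, against 41.1% of all genes. The GC box GGGCGG was found on either strand in 14 of the 15 enzymes and in 2 of those 4 genes, against 38.2% of all genes. An LXR element searched on both strands as AGGTNA and GGTCA with NNNNN between them was found in 0 of the 25 members and in 0.0962% of all genes. That search asked for an exact match and cannot show that a window lacks an LXR element. The Abca1 window holds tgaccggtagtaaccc, which on the opposite strand differs from the searched letters only at its first base. Ebp, which moved against the other enzymes, held 2 CCAAT boxes. These matches describe letters in the windows and not bound sites.

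Each library held between 9022471 and 21363816 counts, and the test covered 15516 genes. Levels below are CPM, counts scaled to a common library total with edgeR's TMM factors, listed by library in ascending order of animal number or as mean ± SD with n = 4, and each difference is a log2 fold change ± its SE, tested by edgeR's quasi-likelihood test, called at an adjusted p under 0.05 over all genes. The sorted cells carried AT2 transcripts in every group: all 9 AT2 markers were detected, and their summed level ran from 151067 to 176172 CPM in R26 CD44- libraries, 101224 to 143986 in R26 CD44+, 40204 to 42800.4 in OG CD44- and 16776 to 19468 in OG CD44+. The largest part of each sum was Sftpc, the gene of the SP-C genotypes. Its means were 79591.5 CPM in R26 CD44-, 54364 in R26 CD44+, 11684.4 in OG CD44- and 6696.45 in OG CD44+ cells. All 9 AT2 markers were lower in OG than in R26 cells in both fractions, and in CD44+ than in CD44- cells under both prefixes. The AT2 markers moved in the same direction as most synthesis genes below, and their part in those results was not tested. In bulk libraries, fewer cells of a type and less RNA per cell cannot be told apart. The CD44+ library of R26 animal 2 had the lowest total count and stood above its 3 fellow R26 CD44+ libraries for several members.

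**Figure D1:**
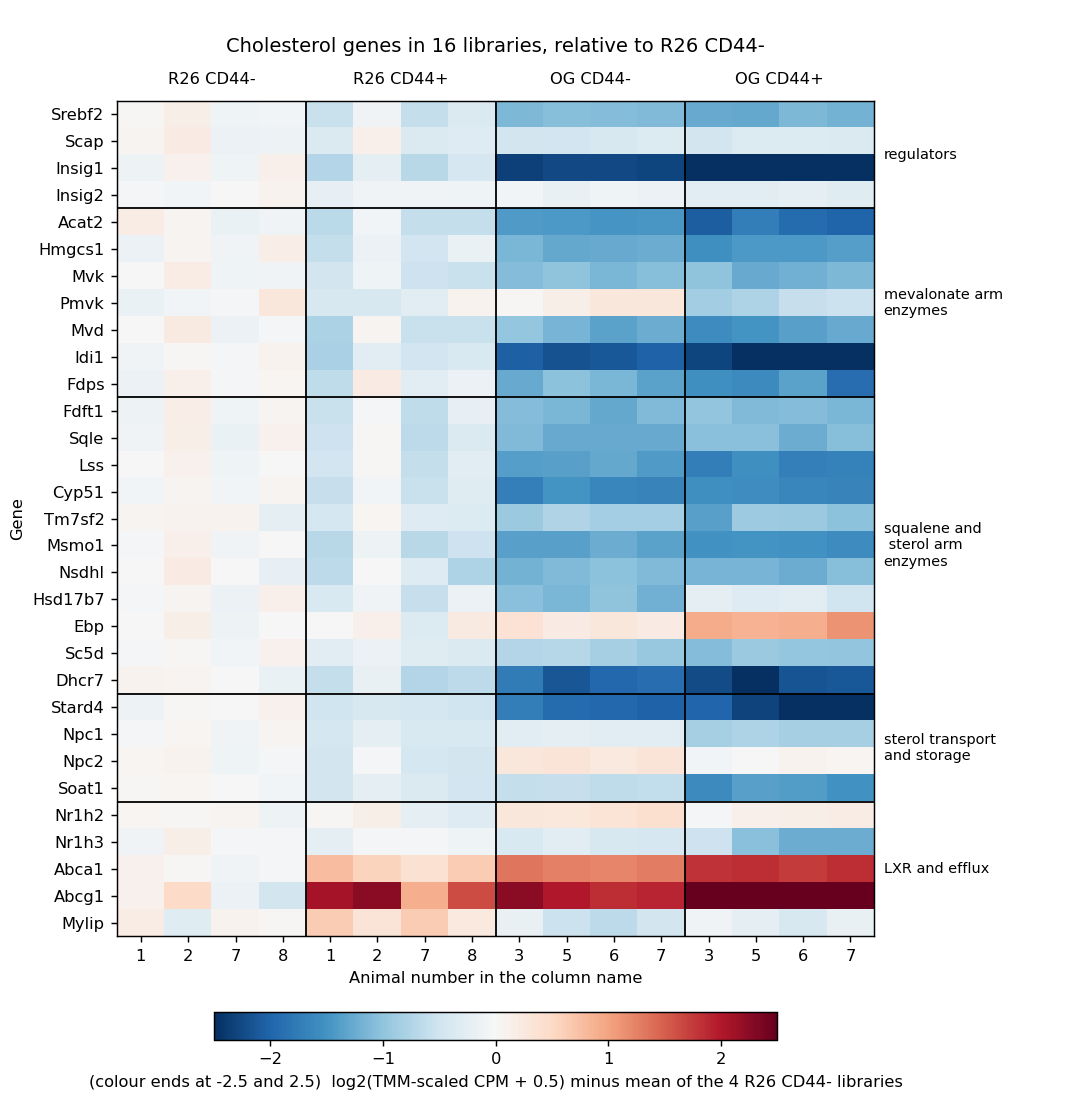
Level of each of the 31 genes (rows) in each of the 16 libraries (columns, by group and animal number), as log2(TMM-scaled CPM + 0.5) minus the mean of the 4 R26 CD44- libraries, with colour ending at -2.5 and 2.5. The enzyme rows are blue in all 8 OG libraries except for Pmvk in OG CD44- cells and Ebp in both, while Abca1 and Abcg1 are red in R26 CD44+, OG CD44- and OG CD44+ libraries.

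Most of the 31 genes had lower transcript levels in OG than in R26 cells, whichever CD44 fraction was compared. In CD44- cells, 25 of the 31 were lower and 5 higher in OG, where 29.6% of all genes tested were called lower and 39.4% higher (69.0% in all). The groups did not overlap for 29 members and 67.6% of all genes. The median log2 fold change was -1.10 over the members and 0.12 over all genes. In CD44+ cells, 24 were lower and 5 higher in OG, where 34.6% of all genes were called lower and 34.5% higher (69.1% in all), and the medians were -0.76 and -0.01. The groups did not overlap for 27 members and 57.7% of all genes. The 18 synthesis enzymes gave 16 lower and 1 higher in each fraction, with medians of -1.22 in CD44- and -0.92 in CD44+ cells. In 20 of the 31 members all 8 OG libraries lay below all 8 R26 libraries, against 17.4% of all genes, and 15 of those 20 were enzymes. Abca1 was the only member with all 8 OG libraries above all 8 R26 libraries, against 19.3% of all genes.

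The medians of the CD44 differences were smaller in size than those between prefixes. CD44+ cells had lower levels than CD44- cells for 20 of the 31 members and higher levels for 3 under the R26 prefix, where 15.4% of all genes were called lower and 21.6% higher (37.1% in all), and the groups did not overlap for 12 members and 28.8% of all genes. The median was -0.34 over the members and -0.02 over all genes. Under the OG prefix 15 members were lower and 4 higher, where 28.0% of all genes were called lower and 22.3% higher (50.4% in all), with medians of -0.21 and -0.06. The OG fractions did not overlap for 19 members and 51.0% of all genes. Among the 18 enzymes, 14 were lower and 0 higher in R26 CD44+ cells, and 7 were lower and 2 higher in OG CD44+ cells. Without the R26 CD44- library of animal 8, which leaves every OG library in place but changes the shared scaling and spread, the count of members lower in OG CD44+ cells was 9. It was also 9 without both libraries of OG animal 3. Over all genes the OG split of 3464 higher and 4351 lower became 3866 and 3482 in the first of these refits. In the other it was 3018 and 3608. With DESeq2 size factors in place of TMM the split over all genes in R26 moved from 3357 higher and 2393 lower to 3174 and 3435, and with the deepest OG CD44- library as the TMM reference to 2978 and 4817.

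**Figure D2:**
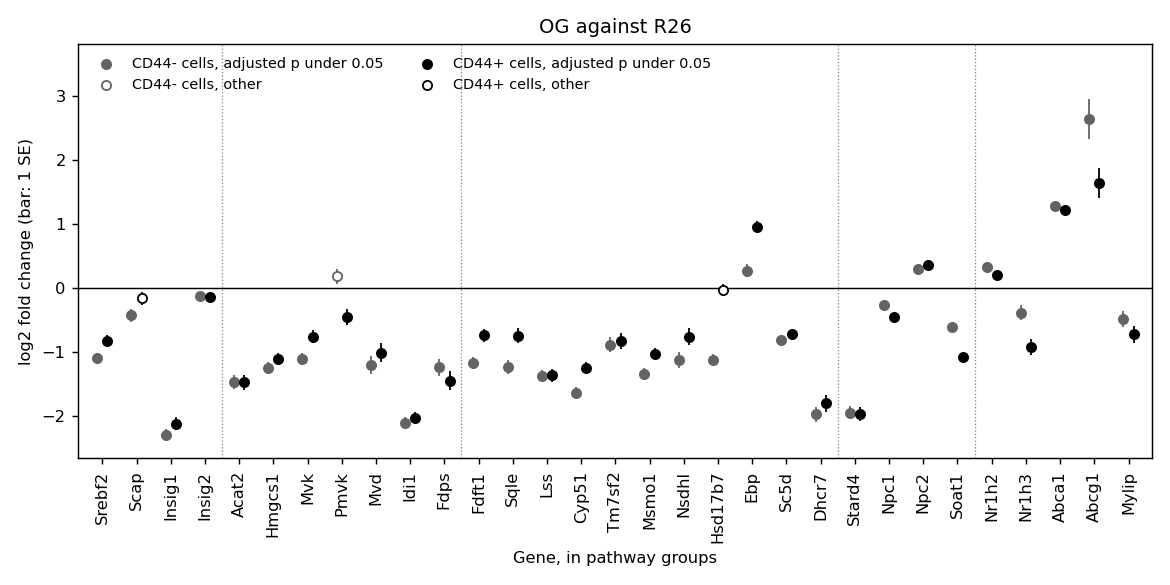
Log2 fold change of OG against R26 (vertical axis, bars of 1 SE) for each member in pathway order (horizontal axis, dotted lines between the 5 gene groups), in CD44- cells (grey) and CD44+ cells (black), filled where the adjusted p was under 0.05. Insig1, Idi1, Dhcr7 and Stard4 sit near -2 in both fractions, and Abca1 and Abcg1 sit above 1.

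The regulators differed widely in how far they moved. Insig1 (gene 231070, chr5:28071363-28078662) encodes a protein that holds SCAP in the endoplasmic reticulum when sterols are plentiful. The gene is itself a target of SREBP2. Its level was 304, 360.1, 307 and 361 CPM in the R26 CD44- libraries, 199, 283, 206 and 249.8 in R26 CD44+, 65.1, 69.4, 69.3 and 67.7 in OG CD44- and 53.2, 52.7, 52.6 and 57.5 in OG CD44+. Every OG library was below every R26 library, and within each prefix every CD44+ library was below every CD44- library. The OG level was 4.91-fold lower in CD44- cells (log2 fold change -2.30 ± 0.10, adjusted p = 4.04e-13) and 4.34-fold lower in CD44+ cells (-2.12 ± 0.10, adjusted p = 1.87e-12). The CD44+ fraction differed by -0.51 ± 0.09 in R26 (adjusted p = 0.000229) and by -0.33 ± 0.10 in OG (adjusted p = 0.00957).

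Srebf2 encodes SREBP2, the transcription factor of the pathway. It was at 534, 579, 485 and 500.4 CPM in R26 CD44-, 357, 493, 345 and 408 in R26 CD44+, 240.1, 249, 246 and 245 in OG CD44- and 219.5, 217, 239.7 and 232 in OG CD44+ libraries. The OG and R26 libraries did not overlap, while the R26 CD44+ library of animal 2 reached into the range of R26 CD44- cells. The OG differences were -1.10 ± 0.08 in CD44- cells (adjusted p = 8.49e-10) and -0.82 ± 0.08 in CD44+ cells (adjusted p = 6.66e-08). Srebf2 was lower in R26 CD44+ than CD44- cells (-0.39 ± 0.08, adjusted p = 0.00109), and in OG cells the difference was -0.11 ± 0.08 (adjusted p = 0.299, or 0.0417 with the animal as a block).

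Scap, which encodes the escort of SREBP, stood at 139.9 ± 16.5 CPM in R26 CD44-, 120.0 ± 21.3 in R26 CD44+, 104 ± 4.32 in OG CD44- and 107 ± 4.24 in OG CD44+ cells. The R26 CD44+ library of animal 2 was at 152 CPM and the other 3 at 108 to 111. Scap was lower in OG CD44- than R26 CD44- cells (-0.43 ± 0.10, adjusted p = 0.00077). The CD44+ fractions of the prefixes differed by -0.16 ± 0.10 (adjusted p = 0.154). In R26 the CD44 difference of Scap was -0.22 ± 0.10 (adjusted p = 0.0814, or 0.000112 with the animal as a block). Insig2, the other INSIG gene, moved little, with group means of 38.0 ± 1.71, 34.9 ± 1.24, 34.7 ± 1.19 and 31.5 ± 0.726 CPM in the same order. The Insig2 difference of OG from R26 was -0.13 ± 0.06 in CD44- cells (adjusted p = 0.0479) and -0.15 ± 0.06 in CD44+ cells (adjusted p = 0.0349), and neither call was kept with no filter on low counts (adjusted p = 0.414 and 0.229). In OG it fell with CD44 (-0.14 ± 0.06, adjusted p = 0.0474, or 0.0643 with the animal as a block).

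In the mevalonate arm, which builds isoprenoid units from acetyl-CoA, 6 of 7 enzymes were lower in OG CD44- than R26 CD44- cells and 7 of 7 in CD44+ cells. Hmgcs1 encodes the synthase that makes HMG-CoA in the cytosol (gene 208715, chr13:119690379-119708260), and its promoter held the SRE match shown above. It was at 317, 368, 331 and 396 CPM in R26 CD44-, 232, 317, 253 and 312 in R26 CD44+, 158, 145, 146 and 148 in OG CD44- and 121, 130.5, 129 and 135 in OG CD44+ libraries. Every OG library was below every R26 library, and within OG the CD44+ libraries were all below the CD44- ones, while the R26 fractions overlapped. The OG level was 2.36-fold lower in CD44- cells (-1.24 ± 0.09, adjusted p = 6.31e-10) and 2.16-fold lower in CD44+ cells (-1.11 ± 0.09, adjusted p = 3.85e-09). The CD44 difference was -0.34 ± 0.09 in R26 (adjusted p = 0.00468) and -0.21 ± 0.09 in OG (adjusted p = 0.0576, or 9.97e-05 with the animal as a block).

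Idi1 encodes the isomerase that interconverts the isoprenoid building blocks (gene 319554, chr13:8885501-8892451). It was at 131, 141, 137 and 147 CPM in R26 CD44-, 79.6, 115, 99.6 and 107 in R26 CD44+, 33.5, 30.2, 31.5 and 34.1 in OG CD44- and 28.0, 24.2, 23.2 and 22.5 in OG CD44+ libraries. No group overlapped the next in that order, and the steps all went down. The OG level was 4.31-fold lower in CD44- cells (-2.11 ± 0.09, adjusted p = 5.18e-15) and 4.09-fold lower in CD44+ cells (-2.03 ± 0.09, adjusted p = 2.74e-14). Idi1 also fell with CD44, with differences of -0.48 ± 0.08 in R26 (adjusted p = 8.90e-05) and -0.40 ± 0.09 in OG (adjusted p = 0.00132).

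The other mevalonate enzymes followed Hmgcs1 and Idi1 between prefixes, except Pmvk. Acat2, the thiolase that joins acetyl-CoA units, was at 72.9 ± 8.34, 52.7 ± 11.4, 26.3 ± 0.453 and 18.8 ± 2.02 CPM in the CD44- and CD44+ cells of R26 and then of OG. In R26 CD44+ cells animal 2 was at 69.6 CPM of Acat2 and the others at 45.1 to 48.2. The OG difference of Acat2 was -1.47 ± 0.11 in CD44- cells and -1.47 ± 0.12 in CD44+ cells. The other 3 enzymes lower in OG CD44- cells were Mvk (-1.10), which phosphorylates mevalonate, Mvd (-1.20), which decarboxylates its diphosphate, and Fdps (-1.24), which makes farnesyl diphosphate. All had adjusted p values of at most 1.32e-07 there. In CD44+ cells the same 3 genes differed by -0.76, -1.01 and -1.45, where Mvk was at 32.3 CPM in R26 animal 2 and 23.5 to 24.9 in the other R26 CD44+ libraries. Fdps shares 26.7% of its exonic bases with a predicted gene on the same strand, Gm43738, and the split of reads between them is not known.

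Pmvk, which encodes phosphomevalonate kinase, did not follow the rest of the arm. Its level was 126, 134, 136 and 172 CPM in R26 CD44-, 106, 106, 116 and 149 in R26 CD44+, 144, 157, 172 and 171 in OG CD44- and 76.6, 82.5, 94.5 and 96.4 in OG CD44+ libraries. The R26 CD44- and OG CD44- libraries overlapped, and the 4 OG CD44+ libraries were all below the OG CD44- libraries and all below the R26 CD44+ ones. The difference between prefixes was 0.18 ± 0.12 in CD44- cells (adjusted p = 0.194) and -0.45 ± 0.13 in CD44+ cells (adjusted p = 0.00561). Pmvk fell with CD44 in OG (-0.88 ± 0.12, adjusted p = 3.82e-05), and in R26 its difference was -0.25 ± 0.12 (adjusted p = 0.133, or 5.73e-06 with the animal as a block).

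Of the 11 enzymes from squalene to cholesterol, 10 were lower and 1 higher in OG CD44- than R26 CD44- cells, and 9 were lower and 1 higher in CD44+ cells. Dhcr7, the reductase that completes cholesterol from its last precursor (gene 13360, chr7:143823145-143848410), had the widest difference of the 11 in both fractions. It was at 43.9, 43.2, 41.3 and 36.7 CPM in R26 CD44-, 27.1, 36.3, 24.6 and 25.8 in R26 CD44+, 11.9, 9.02, 10.1 and 10.7 in OG CD44- and 8.30, 6.22, 8.89 and 9.14 in OG CD44+ libraries. The prefixes were far apart, and within OG the highest CD44+ library lay above the lowest CD44- one. The OG level was 3.93-fold lower in CD44- cells (-1.97 ± 0.12, adjusted p = 6.24e-13) and 3.49-fold lower in CD44+ cells (-1.80 ± 0.13, adjusted p = 1.98e-11). Dhcr7 fell with CD44 in R26 (-0.54 ± 0.11, adjusted p = 0.000454) and in OG (-0.37 ± 0.14, adjusted p = 0.0271), and the OG call was lost with at least 50 counts asked for in 4 libraries (adjusted p = 0.0519).

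Cyp51, the demethylase acting on lanosterol, fell from 144 ± 7.94 CPM in R26 CD44- to 46.3 ± 2.92 in OG CD44- cells (-1.64 ± 0.09, adjusted p = 1.45e-12). In CD44+ cells it was at 112 ± 19.8 and 47.1 ± 2.16 CPM (-1.24 ± 0.09, adjusted p = 1.75e-10). Sqle, squalene epoxidase, which sets a pace-limiting step of the sterol branch, was at 128 ± 12.7 and 54.5 ± 3.08 CPM in the CD44- fractions (-1.23 ± 0.11, adjusted p = 8.36e-08). The CD44+ fractions had 99.7 ± 21.4 and 59.4 ± 3.74 CPM of Sqle (-0.74 ± 0.12, adjusted p = 3.50e-05). For both enzymes no OG library reached the R26 range.

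The remaining sterol enzymes that were lower in OG cells spanned a narrow band. In CD44- cells the log2 differences were -1.37 for Lss, which closes the sterol rings as lanosterol, -1.34 for the methyl oxidase Msmo1, and -1.17 for squalene synthase, Fdft1. They were -1.12 for the dehydrogenase Nsdhl, -0.88 for the reductase Tm7sf2 and -0.81 for the desaturase Sc5d. All 6 were also lower in CD44+ cells, with log2 differences from -1.36 for Lss to -0.72 for Sc5d. Fdft1 shares 18.3% of its exonic bases with Ctsb on the opposite strand, and the strand setting of the counting is not given in the sources used here. Ctsb, a lysosomal protease, was higher in OG cells (0.66 ± 0.05 in CD44- and 0.57 ± 0.05 in CD44+), the reverse of Fdft1. Tm7sf2 shares 12.1% of its exonic bases with Vps51 on the same strand, and the split of reads between them is not known. Vps51 was higher in OG cells (0.30 ± 0.06 in CD44- and 0.43 ± 0.07 in CD44+), the reverse of Tm7sf2.

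Hsd17b7 and Ebp broke the pattern in CD44+ cells. Hsd17b7 encodes the ketoreductase that acts after demethylation (gene 15490, chr1:169949535-169969241). Its level was 35.2, 38.6, 33.2 and 39.9 CPM in R26 CD44-, 27.9, 34.2, 24.3 and 32.8 in R26 CD44+, 17.6, 16.2, 17.9 and 15.7 in OG CD44- and 30.7, 29.1, 30.6 and 25.8 in OG CD44+ libraries. The 4 OG CD44- libraries were below all others, and the OG CD44+ libraries lay within the R26 CD44+ range. Hsd17b7 was lower in OG than R26 cells in the CD44- fraction (-1.12 ± 0.09, adjusted p = 1.66e-10), and the difference in the CD44+ fraction was -0.03 ± 0.09 (adjusted p = 0.781). It rose with CD44 in OG (0.78 ± 0.10, adjusted p = 4.09e-07) and fell in R26 (-0.30 ± 0.09, adjusted p = 0.0116), and those CD44 differences differed by 1.09 ± 0.13 (adjusted p = 1.78e-06).

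Ebp encodes the sterol isomerase known as emopamil binding protein (gene 13595, chrX:8185329-8193512), and its promoter is shown above. It was at 19.7, 22.1, 18.2 and 19.6 CPM in R26 CD44-, 19.9, 21.9, 15.6 and 23.4 in R26 CD44+, 25.6, 23.0, 24.3 and 23.0 in OG CD44- and 38.1, 36.8, 37.5 and 43.8 in OG CD44+ libraries. The OG CD44+ libraries stood above the other 12 libraries, and the OG CD44- libraries were above the R26 CD44- ones but overlapped R26 CD44+. Ebp was the 1 enzyme called higher in OG cells, by 0.96 ± 0.10 in CD44+ cells (adjusted p = 4.94e-09) and by 0.27 ± 0.10 in CD44- cells (adjusted p = 0.0139). The CD44- call was not kept by the DESeq2 test (adjusted p = 0.0606) or with the deepest OG CD44- library as the TMM reference (0.0856). Ebp rose with CD44 in OG (0.70 ± 0.09, adjusted p = 1.04e-06), its R26 difference was 0.02 ± 0.10 (adjusted p = 0.907), and these differed from each other by 0.68 ± 0.14 (adjusted p = 0.000646).

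**Figure D3:**
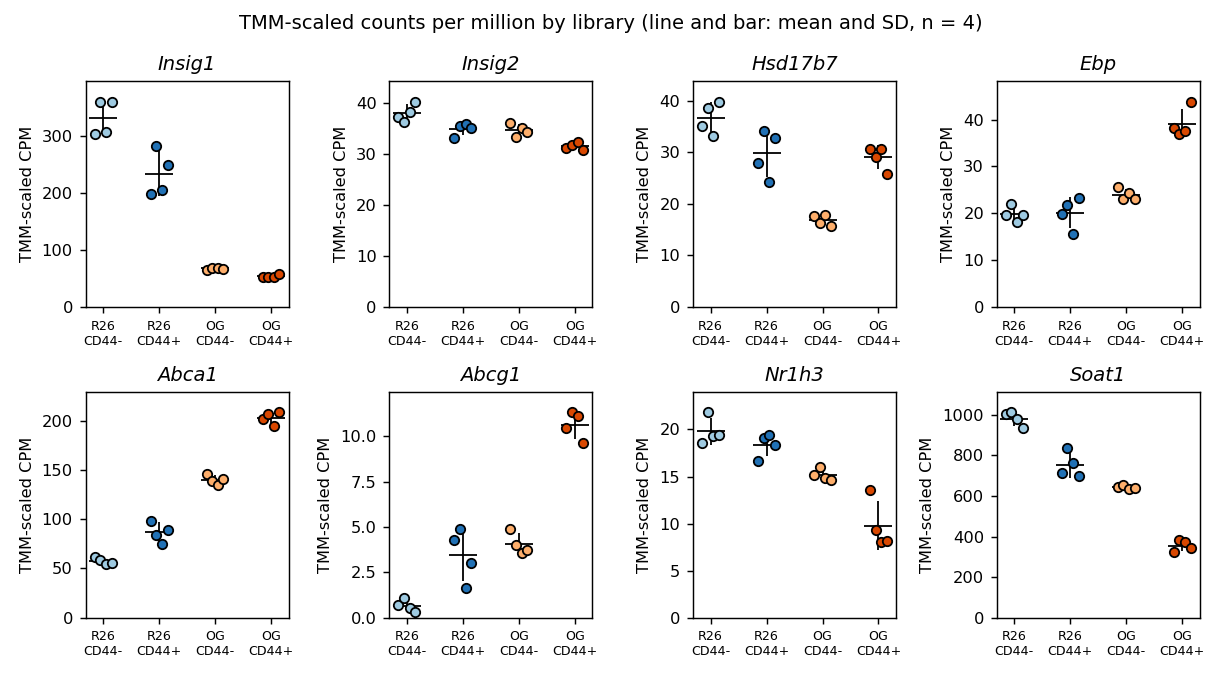
Level in TMM-scaled CPM (vertical axes from 0) of 8 members in the 4 groups (horizontal axes), 1 point per library, with a line at the mean and a bar of 1 SD, n = 4. Insig1 steps down across the 4 groups while Insig2 changes little; Hsd17b7 and Ebp are higher in OG CD44+ than OG CD44- cells; Abca1 and Abcg1 step up, and Nr1h3 and Soat1 step down.

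The 4 genes of transport and storage split between prefixes but fell together with CD44. Stard4, which encodes a cytosolic sterol carrier and is a known SREBP2 target, followed the enzymes. It was at 48.7, 54.9, 52.9 and 58.0 CPM in R26 CD44-, 37.8, 40.5, 39.5 and 37.9 in R26 CD44+, 15.9, 13.8, 13.3 and 12.7 in OG CD44- and 13.2, 10.3, 8.06 and 8.13 in OG CD44+ libraries. Every OG library was below every R26 library, and the OG fractions overlapped only through the CD44+ library of animal 3. The OG level was 3.85-fold lower in CD44- cells (-1.95 ± 0.10, adjusted p = 2.61e-14) and 3.92-fold lower in CD44+ cells (-1.97 ± 0.11, adjusted p = 1.37e-13).

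Soat1 encodes the acyltransferase that turns cholesterol into its stored ester (gene 20652, chr1:156424525-156474331). It stood at 1003, 1013, 978 and 934 CPM in R26 CD44-, 712, 837, 763 and 701 in R26 CD44+, 647, 654, 636 and 639 in OG CD44- and 325, 381, 371 and 344 in OG CD44+ libraries. The 4 groups did not overlap and descended in that order. Soat1 was 1.52-fold lower in OG cells in the CD44- fraction (-0.61 ± 0.06, adjusted p = 1.02e-09) and 2.12-fold lower in the CD44+ fraction (-1.08 ± 0.06, adjusted p = 2.96e-14). Its CD44 difference was -0.86 ± 0.06 in OG and -0.38 ± 0.06 in R26, and the change between them was -0.47 ± 0.08 (adjusted p = 0.000111).

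The products of Npc1 and Npc2 hand cholesterol out of the lysosome, and their transcripts diverged between prefixes. Npc2 was at 2318 ± 145 CPM in R26 CD44-, 1828 ± 269 in R26 CD44+, 2841 ± 67.7 in OG CD44- and 2346 ± 99.1 in OG CD44+ cells. In R26 CD44+ cells animal 2 was at 2231 CPM and the others at 1682 to 1713. Npc2 was higher in OG cells by 0.29 ± 0.07 in the CD44- fraction (adjusted p = 0.000966) and 0.36 ± 0.07 in the CD44+ fraction (adjusted p = 0.000117). The CD44- call was lost without R26 CD44- animal 7 (adjusted p = 0.0816) or animal 8 (0.0622). Npc1 was at 606 ± 29.5, 472 ± 30.0, 506 ± 4.04 and 343 ± 7.97 CPM in the same group order, with OG differences of -0.26 ± 0.05 in CD44- and -0.46 ± 0.05 in CD44+ cells. With CD44 both fell, Npc1 with differences of -0.36 ± 0.05 in R26 and -0.56 ± 0.05 in OG. The CD44 differences of Npc2 were -0.34 ± 0.07 and -0.28 ± 0.07.

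On the efflux side, Abca1 and Abcg1 were higher in all 4 comparisons of groups while the LXR genes themselves did not follow one direction. Abca1 encodes the exporter that loads cholesterol onto apolipoprotein A-I (gene 11303, chr4:53030787-53159895), and its promoter is the last one shown above. Its level was 61.7, 58.9, 54.1 and 55.5 CPM in R26 CD44-, 98.7, 84.5, 74.8 and 89.2 in R26 CD44+, 146, 139, 135 and 141 in OG CD44- and 202, 207, 195 and 209 in OG CD44+ libraries. The 4 groups did not overlap and ascended in that order. The OG level was 2.44-fold higher in CD44- cells (1.28 ± 0.06, adjusted p = 6.11e-15) and 2.34-fold higher in CD44+ cells (1.23 ± 0.06, adjusted p = 1.28e-14). Abca1 rose with CD44 by 0.59 ± 0.06 in R26 (adjusted p = 1.05e-07) and 0.54 ± 0.06 in OG (adjusted p = 1.06e-07). The difference of those CD44 changes was -0.06 ± 0.09 (adjusted p = 0.686).

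Abcg1, the exporter that passes cholesterol to high-density lipoprotein, had few counts (gene 11307, chr17:31057675-31117988). It was at 0.724, 1.08, 0.526 and 0.323 CPM in R26 CD44-, 4.31, 4.87, 1.62 and 3.02 in R26 CD44+, 4.90, 4.01, 3.58 and 3.71 in OG CD44- and 10.4, 11.3, 11.1 and 9.61 in OG CD44+ libraries. The R26 CD44- libraries rested on 9, 13, 8 and 5 counts. The R26 CD44- and OG CD44+ libraries stood apart at either end, and R26 CD44+ overlapped OG CD44-. Abcg1 was higher in OG by 2.64 ± 0.31 in CD44- cells (adjusted p = 4.63e-08) and 1.64 ± 0.24 in CD44+ cells (adjusted p = 1.41e-06), and higher with CD44 by 2.39 ± 0.32 in R26 (adjusted p = 2.56e-06) and 1.39 ± 0.22 in OG (adjusted p = 1.39e-05). The difference between those CD44 changes had an adjusted p of 0.0695, or 0.0206 with the animal as a block.

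Marker lists of other cells and cell states also differed between the groups that differed in Abcg1. All 7 fibroblast markers were higher in CD44+ than CD44- cells under both prefixes and in OG CD44- than R26 CD44- cells, and in OG CD44+ against R26 CD44+ cells 3 were higher and 2 lower. Their summed level ran from 96.9 to 127 CPM in R26 CD44- libraries, 684 to 1465 in R26 CD44+, 709 to 769 in OG CD44- and 1575 to 2807 in OG CD44+. Of 9 tested macrophage and monocyte markers of 11 listed, 4 were higher with CD44 in R26, 0 were higher and 2 lower with CD44 in OG, and 8 were higher in OG CD44- than R26 CD44- cells. In OG CD44+ against R26 CD44+ cells 5 of them were higher and 1 lower. The summed macrophage level was 19.6 to 25.3, 38.5 to 40.6, 60.2 to 64.9 and 33.8 to 47.0 CPM in the same order, and Marco and Siglecf, which mark alveolar macrophages, were at 0 in all R26 CD44- libraries. Lymphocyte and plasma cell markers ran at 8.91 to 25.7, 1567 to 3797, 72.4 to 141 and 1397 to 3965 CPM, with 4 of 4 tested markers of 6 listed higher with CD44 under both prefixes. Of 5 transitional alveolar markers, 5 were higher in OG than R26 cells in each fraction, and 5 in R26 and 4 in OG were higher with CD44. Their sum was 311 to 329 CPM in R26 CD44-, 428 to 506 in R26 CD44+, 1631 to 1688 in OG CD44- and 2515 to 2604 in OG CD44+ libraries. The 5 club and secretory markers were all higher with CD44 under both prefixes, with sums of 555 to 1172, 1795 to 3275, 632 to 753 and 1821 to 2513 CPM in that order, and between prefixes 0 were higher and 1 lower in OG CD44- cells and 2 higher and 2 lower in OG CD44+ cells. Among 5 ciliated markers, 4 in R26 and 5 in OG were higher with CD44, and 5 in CD44- and 4 in CD44+ cells were higher in OG, with sums of 105 to 113, 152 to 264, 165 to 169 and 303 to 392 CPM. The 6 endothelial markers went the other way in OG: 5 were higher and 1 lower with CD44 in R26, and 0 higher and 4 lower in OG, with sums of 124 to 141, 165 to 181, 168 to 177 and 99.6 to 105 CPM. Of 6 alveolar type 1 markers, 4 were higher and 1 lower with CD44 in R26, 2 higher and 2 lower in OG, 5 higher and 0 lower in OG CD44- cells and 4 higher and 2 lower in OG CD44+ cells against R26, with sums of 1287 to 1491, 1511 to 1744, 2634 to 2866 and 2394 to 2709 CPM. The part of these cells in the Abcg1 and Abca1 results was not tested.

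Mylip, which encodes the LXR-induced ligase that degrades lipoprotein receptors, moved in opposite directions along the 2 axes of the design. It was at 15.1, 10.6, 14.0 and 13.4 CPM in R26 CD44-, 20.7, 16.5, 20.8 and 15.7 in R26 CD44+, 11.6, 8.94, 8.16 and 9.43 in OG CD44- and 12.3, 11.1, 9.89 and 11.5 in OG CD44+ libraries. Every R26 CD44+ library was above every R26 CD44- library, while the OG CD44- and R26 CD44- libraries overlapped. Mylip rose with CD44 in R26 (0.48 ± 0.13, adjusted p = 0.00459, but 0.0579 without R26 CD44- animal 2) and was lower in OG than R26 cells (-0.48 ± 0.13 in CD44- and -0.72 ± 0.13 in CD44+, adjusted p = 0.00212 and 3.04e-05). In OG its CD44 difference was 0.23 ± 0.13 (adjusted p = 0.146).

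The receptors themselves went apart. Nr1h3, encoding LXR-alpha, was at 19.8 ± 1.40 CPM in R26 CD44-, 18.4 ± 1.22 in R26 CD44+ and 15.2 ± 0.617 in OG CD44- cells, and at 13.6, 9.30, 8.06 and 8.13 in the OG CD44+ libraries. The OG libraries were below the R26 libraries in each fraction, and the R26 fractions overlapped. The OG difference was -0.39 ± 0.11 in CD44- cells (adjusted p = 0.00448) and -0.91 ± 0.12 in CD44+ cells (adjusted p = 6.37e-07). Nr1h3 fell with CD44 in OG (-0.64 ± 0.12, adjusted p = 0.000142), where the CD44+ library of animal 3 was the highest of its group, and in R26 the difference was -0.11 ± 0.12 (adjusted p = 0.507). Nr1h2, encoding LXR-beta, had group means of 67.5 ± 4.14, 63.6 ± 9.75, 84.3 ± 3.98 and 72.9 ± 4.98 CPM. It was higher in OG by 0.32 ± 0.08 in CD44- cells (adjusted p = 0.000956, but 0.0652 without R26 CD44- animal 8) and by 0.20 ± 0.08 in CD44+ cells (adjusted p = 0.0314, but 0.0900 with at least 50 counts in 4 libraries). A processed pseudogene, Nr1h2-ps, carries its name, and the split of reads between the copies is not known.

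Set against each other library by library, the synthesis enzymes and the LXR targets separated the 4 groups. Relative to R26 CD44- cells, the mean log2 level of the 18 enzymes was -0.36 ± 0.21 in R26 CD44+, -1.12 ± 0.02 in OG CD44- and -1.25 ± 0.02 in OG CD44+ libraries. The mean of Abca1, Abcg1 and Mylip was 0.92 ± 0.23, 0.94 ± 0.14 and 1.63 ± 0.04 in the same groups. Over all 5 LXR and efflux genes, which adds the receptor genes Nr1h2 and Nr1h3, the mean was lower, at 0.51 ± 0.16, 0.55 ± 0.08 and 0.80 ± 0.07. R26 CD44+ and OG CD44- cells overlapped in the LXR targets and did not overlap in the enzymes, with the R26 CD44+ enzyme means between -0.53 and -0.06 and the OG CD44- means between -1.15 and -1.10. The highest of the R26 CD44+ values belonged to animal 2. Abcg1 carried most of the LXR target mean, and Mylip moved against it between prefixes.

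**Figure D4:**
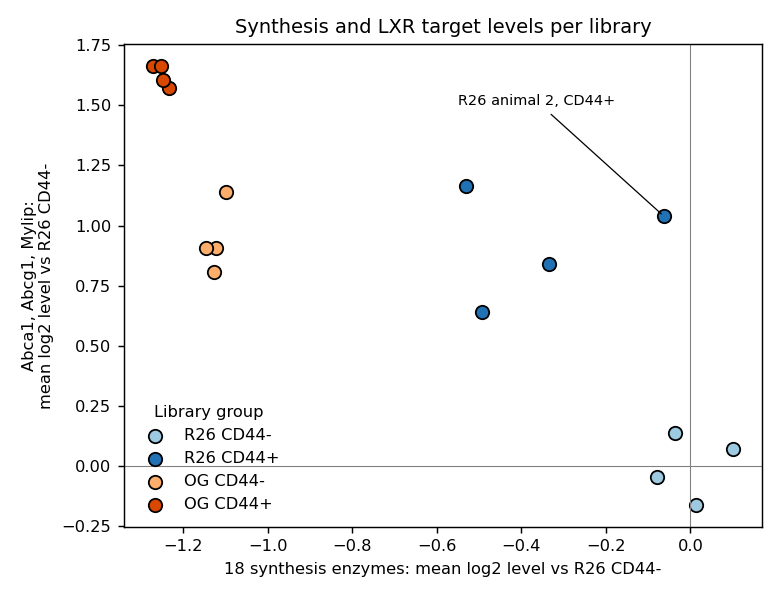
Each point is 1 of 16 libraries, placed by the mean log2 level of the 18 synthesis enzymes (horizontal axis) and of Abca1, Abcg1 and Mylip (vertical axis), both relative to the mean of R26 CD44- libraries. The 4 groups form separate clusters, with OG CD44+ at the lowest enzyme and the highest LXR target levels, and the R26 CD44+ library of animal 2 near R26 CD44- on the enzyme axis.

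With CD44 in OG cells, 4 of the 7 mevalonate enzymes were lower and 0 higher, while of the 11 squalene and sterol enzymes 3 were lower and 2, Hsd17b7 and Ebp, higher. Among all genes, 28.0% were called lower and 22.3% higher in this comparison, near the shares of the squalene and sterol enzymes. The medians of the CD44 differences were -0.40 for the mevalonate and -0.06 for the squalene and sterol enzymes. The difference between these enzyme groups was not tested. The mean log2 level of the 7 mevalonate enzymes went from -1.15 ± 0.02 in OG CD44- to -1.53 ± 0.03 in OG CD44+ libraries, with Pmvk the enzyme that fell most. That of the 11 squalene and sterol enzymes, which averages enzymes going both ways, was -1.11 ± 0.03 and -1.08 ± 0.01. In R26 the CD44+ means were -0.38 ± 0.22 and -0.34 ± 0.22 against R26 CD44- at 0. Animal by animal, the CD44+ fraction had the lower level for 17, 17, 18 and 17 of the 18 enzymes in R26 animals 1, 2, 7 and 8, and for 11, 14, 14 and 13 in OG animals 3, 5, 6 and 7. Sqle, Hsd17b7 and Ebp were higher in the CD44+ fraction of all 4 OG animals. Their log2 differences ran from 0.02 to 0.21 for Sqle, 0.70 to 0.83 for Hsd17b7 and 0.57 to 0.92 for Ebp. Sqle was not called with CD44 in OG in the main fit. It was called in the edgeR fit to the compared groups alone (0.18, adjusted p = 0.00653), which shifted the median of all genes by 0.06. With the animal as a block Sqle was not called. The median difference of R26 animal 2 was -0.17, the smallest of the R26 animals, whose others lay between -0.48 and -0.41.

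**Figure D5:**
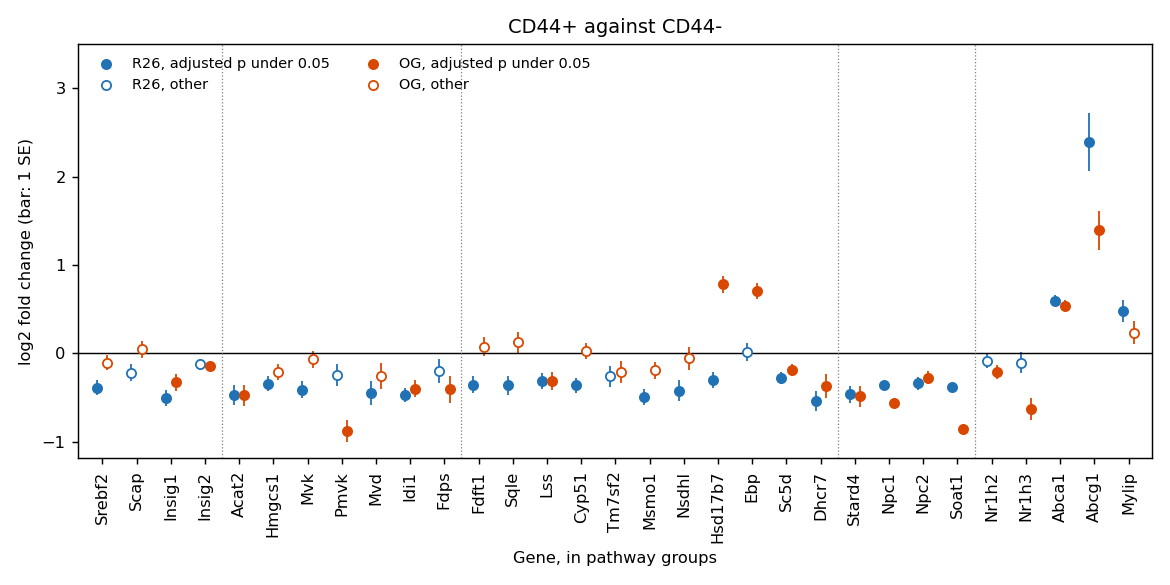
Log2 fold change of CD44+ against CD44- cells (vertical axis, bars of 1 SE) for each member in pathway order (horizontal axis), under the R26 and the OG prefix, filled where the adjusted p was under 0.05. The enzymes lie just below 0 in R26, while in OG Pmvk is lower and Hsd17b7 and Ebp are higher than in R26.

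The difference between those CD44 changes was tested directly for every member, and 5 were higher and 4 lower in OG than in R26, where 6.57% of all genes were called higher and 18.1% lower (24.7% in all). Beside Hsd17b7 and Ebp, the higher 3 were Fdft1 (0.43 ± 0.15, adjusted p = 0.0356), Sqle (0.49 ± 0.16, adjusted p = 0.039) and Cyp51 (0.39 ± 0.12, adjusted p = 0.0261), all of the squalene and sterol arm. The lower 4 were Pmvk (-0.63 ± 0.17, adjusted p = 0.0169), Soat1, Nr1h3 (-0.53 ± 0.17, adjusted p = 0.0241) and Npc1 (-0.20 ± 0.07, adjusted p = 0.0335). With the animal as a block, 11 members were higher and 5 lower, the added ones being Srebf2, Scap, Insig1, Mvk, Msmo1 and Nsdhl among the higher and Abcg1 among the lower. Over all genes the block gave 1449 higher and 3525 lower. Without the R26 CD44+ library of animal 2, 16 members were higher and 2 lower. That refit shifted the median of all genes by 0.12, with 2419 of all genes higher and 2104 lower. Without both libraries of OG animal 3, 2 members were higher, and over all genes 932 were higher and 2562 lower. With the deepest OG CD44- library as the TMM reference the median of all genes in this test shifted by 0.15, its split over all genes moved from 1019 higher and 2806 lower to 2304 and 1721, and 10 members were higher and 1 lower. With DESeq2 size factors that split was 1460 and 2275. Hsd17b7, Ebp and Soat1 kept their calls in every refit without a fold minimum.

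Levels per kilobase of exon allow a rough comparison of genes within a library. The length of a gene was the union of all its annotated GENCODE exons. Since the annotation behind the counts is not given, the rankings below are approximate. In R26 CD44- cells the members spanned from Npc2 at 426 ± 26.6 CPM per kilobase to Abcg1 at 0.0910 ± 0.0443. Insig1 followed Npc2 at 108 ± 10.3 and was not apart from Soat1 at 100.3 ± 3.59, since their libraries overlapped. Pmvk (82.7 ± 11.9), Hmgcs1 (76.8 ± 7.87) and Srebf2 (73.0 ± 5.82) came next and overlapped each other. In OG CD44+ cells Npc2 stood at 431 ± 18.2, Pmvk at 51.1 ± 5.54 and Soat1 at 36.3 ± 2.60, while Insig1 stood at 17.5 ± 0.757 and overlapped Ebp at 16.9 ± 1.40. Abca1 was at 5.55 ± 0.330 in R26 CD44- and 19.6 ± 0.585 in OG CD44+ cells, above every Insig1 library in the latter.

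Genes of the same biology outside the 31 were counted from lists that were also chosen with earlier results of these data known. Of 10 genes for SREBP processing and sterol-regulated degradation, 7 were higher and 3 lower in OG CD44- than R26 CD44- cells, and 5 higher and 3 lower in CD44+ cells. The shares of all genes were 39.4% higher and 29.6% lower for the CD44- fraction, with 34.5% and 34.6% for the CD44+ fraction, and the counts of the small lists here are to be read against them. In CD44- cells the higher ones included Faf2 (0.61 ± 0.05), Erlin2 (0.49 ± 0.06) and the SREBP protease gene Mbtps2 (0.87 ± 0.08). Of 11 genes of the isoprenoid branch, which draws on the same mevalonate, 7 were higher and 0 lower in OG CD44- cells, among them Nus1 (0.69 ± 0.05), a subunit of the dolichol-making prenyltransferase. In CD44+ cells 4 were higher and 2 lower, and with CD44 in OG 0 were higher and 6 lower. The shares of all genes with CD44 in OG were 22.3% higher and 28.0% lower.

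Of 14 further genes of sterol transport and uptake, 6 were higher and 6 lower in OG CD44- than R26 CD44- cells, and 4 higher and 6 lower in CD44+ cells. Lrp8, a lipoprotein receptor and a target of the ligase encoded by Mylip, was at 1.56 ± 0.231 CPM in R26 CD44-, 3.75 ± 0.735 in R26 CD44+, 33.5 ± 2.15 in OG CD44- and 25.1 ± 2.69 in OG CD44+ cells (4.40 ± 0.13 in CD44- cells, adjusted p = 5.36e-19). Lipa, the lysosomal lipase that frees cholesterol from its esters, rose by 2.34 ± 0.19, while Lbr, a sterol reductase of the nuclear envelope (-0.91 ± 0.06), and Cd36, a lipid scavenger receptor (-1.05 ± 0.09), fell. The level of Lipa was 2.58 ± 0.349 CPM in R26 CD44-, 11.9 ± 4.17 in R26 CD44+, 13.1 ± 0.645 in OG CD44- and 25.3 ± 3.06 in OG CD44+ cells. Of 7 further LXR targets, OG had 3 higher and 2 lower in the CD44- fraction and 3 higher and 4 lower in the CD44+ fraction, shares near those of all genes in CD44- cells. In CD44- cells Pltp, the phospholipid transfer protein, rose by 2.30 ± 0.17 and Arl4c by 1.29 ± 0.07, and Srebf1, the LXR-induced gene for the fatty acid branch of SREBP, fell (-0.86 ± 0.07). Pltp and Lipa also rose with CD44 in the libraries where the fibroblast markers were high. The part of fibroblasts in those levels was not tested. Of 7 SREBP1 fatty acid genes, 2 were higher and 4 lower in OG CD44- cells and 1 higher and 4 lower in OG CD44+ cells, with Acly, which supplies acetyl-CoA, at 1015 ± 32.5 CPM in R26 CD44- and 459.7 ± 5.45 in OG CD44- cells (-1.14 ± 0.06, adjusted p = 1.36e-14). Of 3 tested oxysterol enzymes of 4 listed, 2 were higher and 0 lower in OG CD44- cells, and 1 was higher and 1 lower in OG CD44+ cells. Cyp7b1 was higher in OG in both fractions (3.35 ± 0.44 in CD44- and 1.88 ± 0.32 in CD44+ cells), at 0.274 ± 0.0654 CPM in R26 CD44-, 1.88 ± 1.52 in R26 CD44+, 2.86 ± 0.122 in OG CD44- and 7.04 ± 1.96 in OG CD44+ cells. Cyp7b1 reached only 0.197 to 0.333 CPM in the R26 CD44- libraries, too few counts to fix the size of the CD44- fold. Its level too was higher in the CD44+ libraries, where the fibroblast markers were high, and the part of fibroblasts in it was not tested. Ch25h was at 0.0702 ± 0.0935 CPM in R26 CD44- cells, which is too few counts for a fold, and at 1.53 ± 0.799, 0.446 ± 0.136 and 0.839 ± 0.279 CPM in the other groups in that order. In CD44+ cells its OG difference was -0.83 ± 0.43 (adjusted p = 0.0874).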

How the data were processed

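Per the labels' protocols, libraries of total RNA were made with a stranded kit after removal of ribosomal RNA. The submitters' processing notes name Bowtie2, without a version, and the build mm10. The counting program, annotation and strand setting are not given in the sources used here. The deposited values are raw counts per gene, whole numbers that the authors had not normalized. All columns were used, each placed by the prefix and sort in its name, and gene identifiers matched a symbol for 25275 of 27179. The members and all lists were chosen with earlier results of these data known. All 31 members are named, and from each other list at most 4 genes with the smallest adjusted p.

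Counts were tested in R 4.3.3 with edgeR 4.0.16 (limma 3.58.1) after filterByExpr and TMM scaling. The test was the robust quasi-likelihood F test with a mean for each group, fitted to the 16 libraries together, and p-values were adjusted by Benjamini-Hochberg over 15516 genes with no fold minimum. The SE is the size of the log2 fold change divided by the square root of F. Levels are TMM-scaled CPM, and means over gene groups use log2(CPM + 0.5). Totals of 9022471 to 21363816 counts set the precision, and counting error is larger for low genes. The fit was tested on simulated data. No label says whether a group's libraries were sorted or prepared apart. The p-values rest on the spread between libraries within groups, pooled over the 4 groups for each gene. They cannot tell a group from a batch that its libraries share. The pooled spreads were unlike, with SDs of the enzyme mean of 0.21 in R26 CD44+ and 0.02 in OG CD44+ libraries. The main fit treats the CD44- and CD44+ fractions of a mouse as separate samples.

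Animal numbers in the column names pair the CD44- and CD44+ libraries of 1 animal. Across genes, the deviations of same-numbered libraries from their group means correlated at 0.139 to 0.270 in R26 and 0.0142 to 0.0992 in OG, where animal 6 matched the other fraction of animal 7 best, so in OG the pairing rests on the names. Alternatives were size factors or the Wald test of DESeq2 1.42.0, no filter or a filter of 50 counts in 4 libraries, a fit to the compared groups alone, the deepest OG CD44- library as TMM reference, a 1.5-fold minimum, the animal as a block, and each library left out. A fit with neither library of OG animal 3 was chosen after seeing the data.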

Additional observations from a re-analysis of the deposited data

Results flagged for a closer look

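Among 124 sets of 4 libraries, 1 per member and group, 9 held a library far from its 3 fellows, where chance gives about 1 in 20 such sets. In R26 CD44+ cells the library of animal 2 stood apart above the others for Scap (152 CPM, others 108 to 111), Acat2 (69.6, others 45.1 to 48.2), Mvk (32.3, others 23.5 to 24.9) and Npc2 (2231, others 1682 to 1713). In OG CD44+ cells Insig1 was highest in animal 7 (57.5 CPM, others 52.6 to 53.2), Npc1 was highest in animal 5 (355 CPM, others 338 to 340.4) and Sqle was lowest in animal 6 (53.8 CPM, others 61.0 to 61.5). Sqle was highest in animal 3 among OG CD44- libraries (59.1 CPM, others 52.9 to 53.0), and Tm7sf2 was lowest in animal 8 among R26 CD44- libraries (14.0 CPM, others 17.3 to 17.6).

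The CD44 difference itself differed between OG and R26 for 9 members by edgeR's test of that difference. It was higher in OG for Hsd17b7 (1.09), Ebp (0.68), Sqle (0.49), Fdft1 (0.43) and Cyp51 (0.39) on the log2 scale. It was lower in OG for Pmvk (-0.63), Nr1h3 (-0.53), Soat1 (-0.47) and Npc1 (-0.20). Their adjusted p values ran from 1.78e-06 for Hsd17b7 to 0.0390 for Sqle.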

How the results depend on the processing

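The 110 called log2 fold changes of members were refitted under those of 25 settings that apply to their comparison, since the block and the fit to the compared groups alone do not apply to all. In these refits 0 changed sign, 2435 kept the call and 247 did not. Calls held in every refit without a fold minimum for 26 of 30 members between prefixes in CD44- cells, 27 of 29 in CD44+ cells, 16 of 23 with CD44 in R26, 13 of 19 with CD44 in OG and 3 of 9 for the difference of the CD44 changes. Leaving out each library gave 24 to 25 members lower and 2 to 5 higher in OG CD44- against R26 CD44-, 23 to 24 lower and 4 to 5 higher in CD44+ cells, 20 to 25 lower and 2 to 3 higher with CD44 in R26, and 9 to 14 lower and 4 to 5 higher with CD44 in OG. The count of 2 higher in OG CD44- cells came without R26 CD44- animal 8, and 3 without animal 7. For the difference of the CD44 changes it gave 2 to 16 higher and 1 to 4 lower. The cause of these moves was not tested.

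With a fold minimum of 1.5, 1 member was higher and 2 lower with CD44 in OG, and 1 and 0 in R26. Over all genes 1483 were then higher and 362 lower in OG, and 2026 and 9 in R26. Between prefixes, 2 members were higher in CD44- cells and 3 in CD44+ cells of OG, against 2551 and 2154 of all genes. The difference of the CD44 changes kept 1 member higher and 0 lower, against 55 and 613 of all genes. That setting asks for a larger change. With only the compared libraries 7 members were higher with CD44 in OG, where 4283 of 14581 genes were higher. Without both libraries of OG animal 3, 9 members were lower with CD44 in OG and 2 were higher in the difference of the CD44 changes. The latter gave 8 higher and 2 lower with DESeq2 size factors, 8 higher by DESeq2, 3 higher with no filter, and 10 higher and 1 lower with the other TMM reference. The cause was not tested.

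With the animal as a replicate block, 11 members were higher in the difference of the CD44 changes. With CD44, 18 were lower in OG and 23 in R26, where the added calls not given above were Mvd and Msmo1 in OG (adjusted p = 0.0442 and 0.00458) and Tm7sf2 in R26 (0.0482). No other member's call changed with the block. No paired analysis was possible because animals differ between prefixes for OG against R26.

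Among the 31 members depth limits Abcg1 most, which rested on 9, 13, 8 and 5 counts in R26 CD44- libraries.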
